A study of Mus musculus with 10 samples.

Results

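A set of 10 genes of amino acid supply and of the amino acid response were followed in NGS assays of murine keratinocytes and CD8+ T cells. They were chosen by name, as the genes called Slc7a5, Slc3a2, Slc1a5, Slc7a1, Slc38a2, Asns, Atf4, Ddit3, Trib3 and Chac1 in each of 10 gene tables, and all 10 were found among the 25814 genes listed. The choice was made with earlier results of these data known. Shares of calls and medians set beside those of all genes are therefore descriptions and no independent test. RNA came from primary murine keratinocytes and from splenic CD8+ T cells that were separated with CD8 microbeads. The study's methods give C57/B6 as the strain of its mice and both adult tails and newborn mice as sources of keratinocytes, without saying which were sequenced. The labels name no genotype, and the paper describes the sequenced keratinocytes as wild type. There were 5 groups with 2 libraries each. Keratinocytes were either kept alone or lysed after co-culture with CD8+ T cells, which were washed off. T cells were lysed after 1 d of activation by αCD3/CD28 Abs (activated T cells), after the same activation and another 1 d in keratinocyte medium without keratinocytes, or after activation and 1 d of co-culture with keratinocytes. The labels of the T cells give 1 d for the co-culture, and the design text gives 1 h. The labels of the keratinocytes give no time, and the paper states for them the same time as the labels of the T cells. The labels speak of keratinocyte medium for the second T-cell group, and the results of the paper of a mixture with T-cell medium. The labels do not say how many mice contributed to a library, so that p-values measure the spread between these libraries only. The 2 libraries of a group are called library 1 and library 2 here.

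Amino acids enter cells through membrane carriers. Slc7a5 (LAT1) exchanges large neutral amino acids such as leucine and needs Slc3a2 (CD98 heavy chain, 4F2hc), the glycoprotein that brings it to the membrane. Slc1a5 (ASCT2) and Slc38a2 (SNAT2) carry glutamine and other small neutral amino acids, and Slc7a1 (CAT1) carries arginine and lysine. When amino acids run short or the endoplasmic reticulum (ER) is stressed, kinases phosphorylate the initiation factor eIF2, bulk translation slows and Atf4 mRNA is translated more. ATF4 is a transcription factor that binds to C/EBP-ATF response elements near genes for amino acid transport and synthesis, among them Asns, and near the stress genes Ddit3 (CHOP), Trib3 and Chac1. Lymphocytes raise their carriers for leucine and glutamine upon activation.

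Reads were assigned to exons on GRCm38, and the tables gave each of the 10 genes the coordinates it has in the GENCODE vM21 annotation. The carrier genes are Slc7a5 (ENSMUSG00000040010, chr8:121881150-121907694, minus strand), Slc3a2 (ENSMUSG00000010095, chr19:8706882-8723369, minus strand), Slc1a5 (ENSMUSG00000001918, chr7:16781340-16798274, plus strand), Slc7a1 (ENSMUSG00000041313, chr5:148327410-148399904, minus strand) and Slc38a2 (ENSMUSG00000022462, chr15:96687392-96699730, minus strand). The genes of the response are Asns (ENSMUSG00000029752, chr6:7675169-7693254, minus strand), Atf4 (ENSMUSG00000042406, chr15:80255184-80257541, plus strand), Ddit3 (ENSMUSG00000025408, chr10:127290774-127296288, plus strand), Trib3 (ENSMUSG00000032715, chr2:152337422-152344032, minus strand) and Chac1 (ENSMUSG00000027313, chr2:119351229-119354381, plus strand).

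Promoters were searched for the core of the C/EBP-ATF response element, since most of these genes are known as ATF4 targets. The letters TGATGNAA were searched on both strands of the 250 bases before each RefSeq transcription start (GRCm38.p6). They were found in 1134 of 32851 such windows, a share of 3.45%. RefSeq windows were at hand for 8 of the 10 genes, and 2 of these 8 held the letters. The Asns window (chr6:7693210-7693459, minus strand) has TGATGAAA 16 to 23 bases before the start on the strand of the gene. The Chac1 window (chr2:119350992-119351241, plus strand) has TGATGCAA 186 to 193 bases before the start on the other strand. Both are shown because they are the windows with a match, and capitals mark the matched bases.
Asns: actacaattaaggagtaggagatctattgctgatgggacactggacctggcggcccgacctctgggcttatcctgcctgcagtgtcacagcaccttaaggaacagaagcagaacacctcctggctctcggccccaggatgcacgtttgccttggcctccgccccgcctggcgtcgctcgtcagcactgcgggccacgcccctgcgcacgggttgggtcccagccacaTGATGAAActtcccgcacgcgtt
Chac1: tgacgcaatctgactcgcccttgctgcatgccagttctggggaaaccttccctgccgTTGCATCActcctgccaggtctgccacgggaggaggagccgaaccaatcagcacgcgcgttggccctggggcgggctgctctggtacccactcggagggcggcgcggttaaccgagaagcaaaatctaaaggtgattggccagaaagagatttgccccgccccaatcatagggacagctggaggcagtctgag
The letters of the cAMP response element, TGACGTCA, which cannot match at the same bases, were in none of these windows and in 1.55% of all windows.

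Libraries held 12864931 to 18019609 exon reads. RPKM values scale the exon reads of a gene to the length of its exons and to the mapped reads of the library, and 3 reads on 1 kb of exons equal 0.158 to 0.212 RPKM. Keratinocyte markers separated the cell types, and T-cell markers did so less. The summed RPKM of 13 keratinocyte markers was 24290 to 28430 in keratinocyte libraries, 11.5 to 26.3 in T cells without keratinocytes and 139.5 to 247.9 in co-cultured T cells. The T-cell markers Cd3d, Cd3e, Cd3g, Cd247, Cd2, Lck, Cd8a, Cd8b1 and Cd4 summed to 1227 and 1643 RPKM in activated T cells, 2847 and 2414 in keratinocyte medium, 2720 and 1978 in co-cultured T cells and 112.5 to 794.5 in keratinocyte libraries, 9 of the 12 listed markers being above 0 in each library. The other 3 (Trac, Trbc1 and Trbc2) had no read in any library, as had 219 of 220 T-cell receptor genes in the tables. Markers of B cells (5 genes) summed to 29.9 and 31.8 RPKM in activated T cells, 44.7 and 92.5 in keratinocyte medium and 16.7 and 27.3 in co-cultured T cells. The T-cell groups thus differed in both sums, whose part in the differences given for T cells was not tested. In keratinocyte libraries Cd8a was low, at 0.118 to 1.16 RPKM, while it was at 110 to 334 in T cells. Other T-cell markers were not low there, with Cd3e at 14.4 to 88.6 RPKM and Cd4 at 11.4 and 43.5 in keratinocytes alone and 15.0 and 84.5 in co-cultured keratinocytes. Libraries of CD8+ T cells also held Cd4, at 16.8 RPKM in library 1 of activated T cells and between 62 and 102 RPKM in the other 5.

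Slc7a5 was at 113 and 43.7 RPKM in activated T cells, 10.1 and 6.30 in keratinocyte medium, 9.17 and 15.6 in co-cultured T cells, 35.9 and 65.7 in keratinocytes alone, and 59.7 and 46.0 in co-cultured keratinocytes. All T-cell libraries taken after the additional day were below all others. The deposited tables mark only 14.3% of the Slc7a5 exon reads as uniquely mapped, 6.96 to 17.5% in single libraries. Slc7a5 lies within the span of Gm20388, which is annotated on the opposite strand (chr8:119910841-124345722) and shares 0 exon bases with it. Genes within that span had a median of 20.45% unique reads (54 genes), against 100% for the 12494 others. The part of Gm20388 in the low share of unique reads was not tested, and values of Slc7a5 from unique reads are given where they change a call.

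Slc3a2, the partner of Slc7a5, was at 64.2 and 54.0 RPKM in activated T cells, 22.4 and 31.1 in keratinocyte medium, 24.5 and 41.5 in co-cultured T cells, 40.7 and 90.7 in keratinocytes alone, and 59.4 and 80.4 in co-cultured keratinocytes. Activated T cells and keratinocytes overlapped, and T cells after the additional day were below activated T cells. Slc7a1, the arginine carrier, was at 23.7 and 9.51 RPKM in activated T cells, 4.70 and 3.23 in keratinocyte medium, 3.78 and 3.58 in co-cultured T cells, 18.04 and 23.6 in keratinocytes alone, and 20.9 and 17.1 in co-cultured keratinocytes. One library of activated T cells was above and the other below all keratinocyte libraries, and both later T-cell groups were below all others.

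The glutamine carriers were arranged in opposite ways. Slc1a5 was at 84.0 and 60.6 RPKM in activated T cells, 34.5 and 28.7 in keratinocyte medium, 26.6 and 25.7 in co-cultured T cells, 2.84 and 6.08 in keratinocytes alone, and 3.14 and 9.63 in co-cultured keratinocytes. Every T-cell library was above every keratinocyte library, and the 3 T-cell groups followed each other without overlap. The 4 keratinocyte libraries had Slc1a5 in the order of their T-cell markers, which summed to 112.5 and 445.1 RPKM in keratinocytes alone and to 145.6 and 794.5 in co-cultured keratinocytes. The part of this RNA in the Slc1a5 level was not tested. Slc38a2 was at 24.04 and 11.7 RPKM in activated T cells, 17.4 and 12.9 in keratinocyte medium, 17.1 and 19.1 in co-cultured T cells, 77.0 and 104 in keratinocytes alone, and 62.7 and 64.8 in co-cultured keratinocytes. Here every keratinocyte library was above every T-cell library, and the 3 T-cell groups overlapped.

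Atf4 was the member with the highest mean level in each keratinocyte group and in activated T cells, as far as levels per exon length can be compared between genes. Its RPKM values were 132 and 89.7 in activated T cells, 20.8 and 19.5 in keratinocyte medium, 18.3 and 39.3 in co-cultured T cells, 104 and 135 in keratinocytes alone, and 119 and 121 in co-cultured keratinocytes. As for Slc7a5, activated T cells overlapped with keratinocytes, and the later T cells were below both. Asns, the enzyme that makes asparagine with glutamine as nitrogen donor, was at 19.2 and 13.1 RPKM in activated T cells, 3.76 and 6.54 in keratinocyte medium, 2.60 and 3.93 in co-cultured T cells, 59.0 and 80.3 in keratinocytes alone, and 93.0 and 65.0 in co-cultured keratinocytes. The order of its levels was keratinocytes, activated T cells and later T cells, with no overlap between these 3 sets.

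Ddit3 and Trib3 differed most between the libraries of keratinocytes alone. Ddit3, a transcription factor of the ER stress response that is linked to cell death, was at 4.28 and 2.42 RPKM in activated T cells, 8.58 and 7.36 in keratinocyte medium, 5.39 and 18.03 in co-cultured T cells, 9.59 and 54.7 in keratinocytes alone, and 11.2 and 10.97 in co-cultured keratinocytes. Activated T cells were lowest, and library 2 of keratinocytes alone stood far above the other 9. Ddit3 is a short gene with 31 to 829 exon reads per library, and its end overlaps with that of Mars, which is transcribed from the opposite strand. The library kit named by the labels does not mark the strand of the RNA, so that reads from the overlap cannot be told apart. Trib3, a pseudokinase that binds ATF4, was at 10.8 and 10.9 RPKM in activated T cells, 9.71 and 6.98 in keratinocyte medium, 6.97 and 8.86 in co-cultured T cells, 9.99 and 51.4 in keratinocytes alone, and 23.3 and 50.4 in co-cultured keratinocytes. Except for library 1 of keratinocytes alone, keratinocytes were above T cells.

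Chac1 encodes an enzyme that degrades glutathione. It had 58 and 27 exon reads in activated T cells (2.11 and 1.15 RPKM), 0 and 0 in keratinocyte medium, and 24 and 55 in co-cultured T cells (0.963 and 2.37 RPKM). Keratinocytes alone had 29.6 and 46.4 RPKM, and co-cultured keratinocytes 55.9 and 47.7 RPKM. All keratinocyte libraries were thus far above all T-cell libraries, and T cells in keratinocyte medium were the one group without a read.

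**Figure D1:**
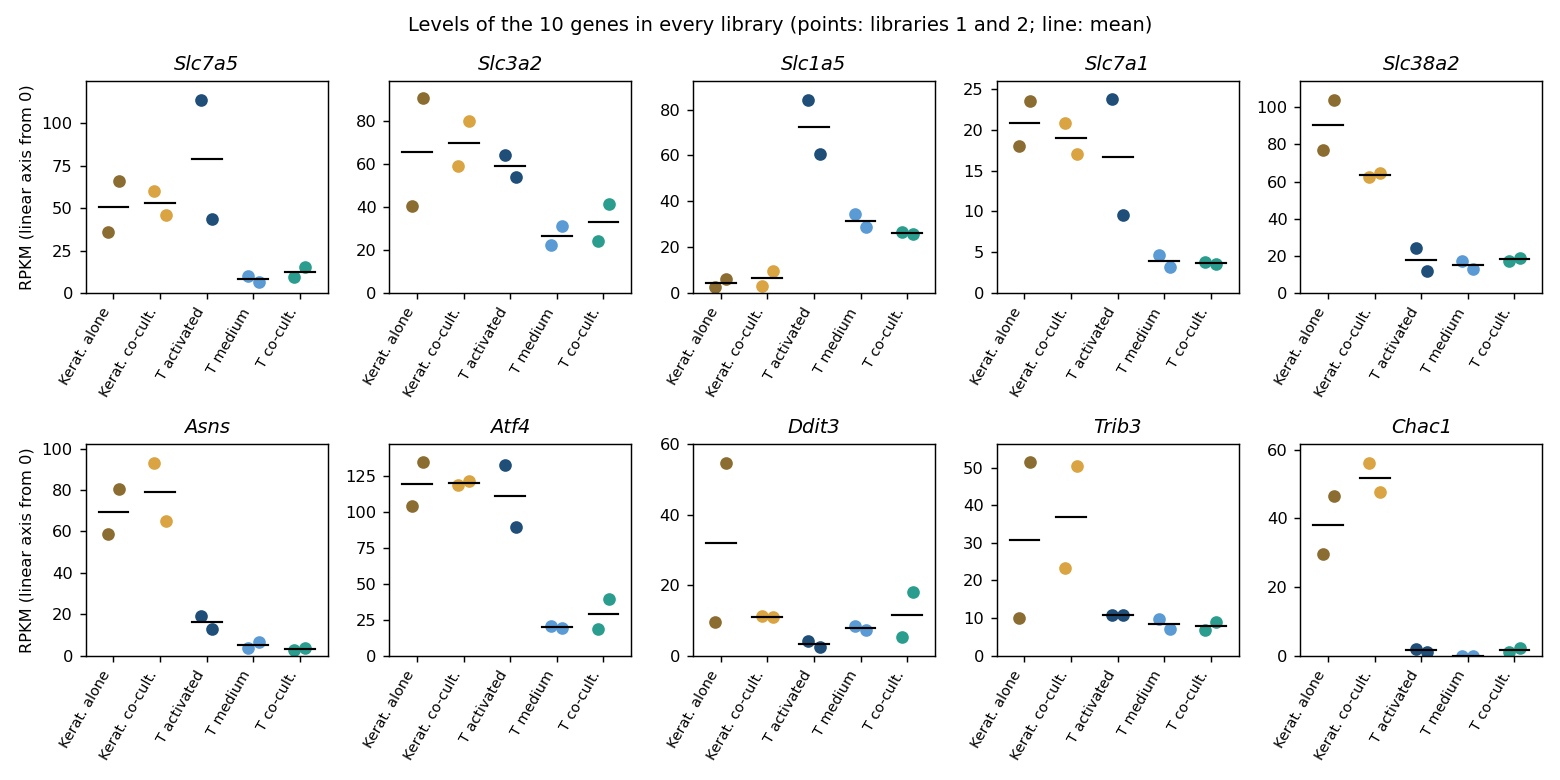
RPKM (linear axes from 0) of the 10 genes by group, with a point for each of 2 libraries and a line at their mean. For Slc7a5, Slc7a1 and Atf4 the range of activated T cells overlaps with that of keratinocytes and T cells after 1 more day lie below both. Slc1a5 is highest in T cells, and Ddit3 and Trib3 spread widely in keratinocytes alone.

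In 3 of the 5 groups, 8 or more of the 10 genes differed in the same direction between the libraries. All 10 were higher in library 2 than in library 1 of keratinocytes alone, while 45.2% of all genes were. In activated T cells 1 of 10 was higher in library 2, Trib3 with nearly equal values, against 42.1% of all genes. In co-cultured T cells 8 of 10 were higher in library 2, against 37.6% of all genes. In co-cultured keratinocytes it was 5 of 10, against 40.2% of all genes, and in keratinocyte medium 2 of 10, with 7 higher in library 1, against 41.6%.

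In T cells that were kept for 1 d in keratinocyte medium, 4 of the 10 genes fell below their level in activated T cells and none rose. With edgeR's quasi-likelihood test, 6.54% of the 11863 genes tested were called in this comparison, 4.22% lower and 2.32% higher. Slc7a5 fell 9.61 fold between the mean RPKM values, with a log2 fold change of -3.11 ± 0.54 (± SE here and for all log2 fold changes that follow, adjusted p = 0.0207). Atf4 fell 5.51 fold (log2 fold change -2.31 ± 0.46, adjusted p = 0.0297), and Slc7a1 fell 4.20 fold (-1.91 ± 0.45, adjusted p = 0.0451). Chac1 was called as well (adjusted p = 0.0392), and with the 0 reads of both medium libraries set to 3 reads each it was at least 14.5 fold lower. Over the 10 genes the median was -1.26, also with Chac1 at this bound, and over all genes tested it was -0.01.

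The 6 others did not pass. Their log2 fold changes in keratinocyte medium were -1.47 ± 0.49 for Asns (adjusted p = 0.109), -1.04 ± 0.30 for Slc1a5 (0.0754), -0.98 ± 0.40 for Slc3a2 (0.174), -0.24 ± 0.39 for Trib3 (0.766), -0.08 ± 0.38 for Slc38a2 (0.932) and 1.40 ± 0.70 for Ddit3 (0.259). Ddit3 was the one member with a value above 0. The end of the activation step, the time after it and the medium change together here and cannot be told apart. In bulk RNA, fewer cells with a transcript cannot be told apart from less transcript per cell. Leaving out library 1 of activated T cells or either library in keratinocyte medium ended all 4 calls, with adjusted p from 0.0772 to 0.239, with log2 fold changes of -2.32 for Slc7a5 and -1.16 for Slc7a1 without the first of these. Without library 2 of activated T cells only Chac1 was lost (adjusted p = 0.0589).

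In co-cultured T cells 4 genes were lower than in activated T cells, where 10.3% of all genes tested were called, 5.72% lower and 4.59% higher. Slc7a5 fell 6.34 fold (log2 fold change -2.42 ± 0.52, adjusted p = 0.0268), Asns 4.94 fold (-2.08 ± 0.50, adjusted p = 0.0371), Slc7a1 4.52 fold (-1.96 ± 0.45, adjusted p = 0.0319) and Slc1a5 2.76 fold (-1.26 ± 0.30, adjusted p = 0.0356). Atf4 was 3.86 fold below its level in activated T cells and just missed the threshold (-1.71 ± 0.45, adjusted p = 0.0502). Ddit3 had a log2 fold change of 2.06 ± 0.71 (adjusted p = 0.103), and the values were -0.62 ± 0.40 for Slc3a2, 0.24 ± 0.38 for Slc38a2, -0.25 ± 0.39 for Trib3 and 0.28 ± 1.02 for Chac1, with adjusted p from 0.349 to 0.894. The median of the 10 genes was -0.94, against -0.01 for all genes tested. Both comparisons use the same activated T cells and are therefore not independent. In co-culture the presence of keratinocytes is added to the end of activation, the time after it and the medium, which cannot be told apart here either.

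Calls were lost when single libraries were left out, in fits where the remaining library of a group is assumed to vary like the other groups. Slc1a5 lost its call whichever of the 6 T-cell libraries was left out (adjusted p from 0.0511 to 0.182), with log2 fold changes of -1.44 to -1.05. Slc7a5 lost it without library 1 of activated T cells (log2 fold change -1.63, adjusted p = 0.149) or of co-cultured T cells (-2.02, 0.0591), and it was at -2.00 (adjusted p = 0.109) with unique reads. Slc7a1 lost it without library 1 of activated T cells (log2 fold change -1.21, adjusted p = 0.187) or without either co-cultured library (0.0706 and 0.0939). Asns lost it without any one of the libraries compared (0.0577 to 0.174), with log2 fold changes of -2.53 to -1.74. Atf4 passed without library 2 of co-cultured T cells (-2.50, adjusted p = 0.0255) and in no other of these fits, which gave values up to -1.20. Ddit3 passed without library 1 of co-cultured T cells (2.72, adjusted p = 0.0284), and without library 2 it was at 0.79 and did not pass. With library sizes in place of TMM normalization, 34.2% of all genes called were higher, against 44.5%.

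The effect of keratinocytes on T cells at the same time after activation is given by the comparison of co-culture with keratinocyte medium. None of the 10 genes passed in this comparison, in which 0.261% of the 11863 genes were higher and 0 lower (89 lower at an unadjusted p under 0.05, 8 with DESeq2 and 1 with limma). Chac1 had 24 and 55 reads in co-culture against 0 and 0 in medium, which is at least 14.8 fold higher, with an adjusted p of 0.270. It passed with DESeq2 (adjusted p = 0.00341), without a filter on low counts (0.00201) and in a fit of all 10 libraries (0.0212). Keratinocyte markers in the same libraries were at 0.875 and 0.492% of their sum in co-cultured keratinocytes. The same percentage of the Chac1 level of co-cultured keratinocytes is 0.453 and 0.255 RPKM, against 0.963 and 2.37 RPKM measured. The scaled values are 47.1 and 10.7% of the measured ones, and the part of keratinocyte RNA in the Chac1 reads was not tested. Scaled in the same way, Asns of co-cultured keratinocytes is 26.5 and 9.90% of its level in co-cultured T cells. Atf4 follows with 5.75 and 1.51%. Of the 9 genes other than Chac1, Slc7a5 (0.69 ± 0.50), Ddit3 (0.66 ± 0.68) and Atf4 (0.60 ± 0.44) had the highest log2 fold changes and Asns (-0.61 ± 0.48) the lowest, each with an adjusted p of 1.

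**Figure D2:**
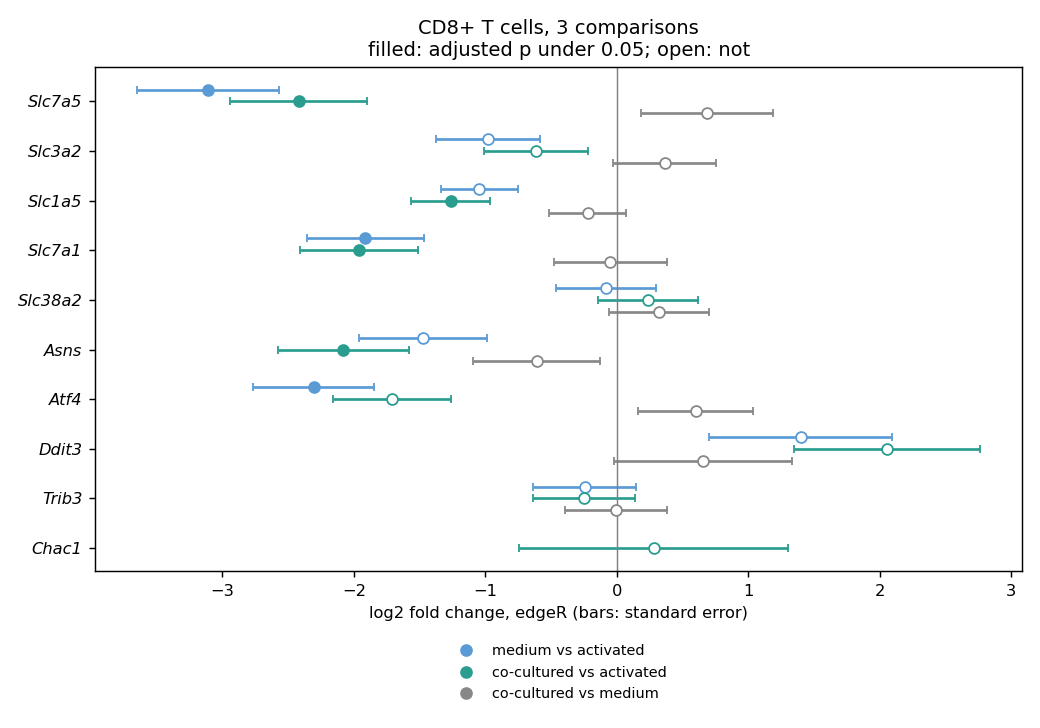
Log2 fold changes of the 10 genes in T cells from edgeR, with bars for the standard error and filled points for an adjusted p under 0.05. Slc7a5 and Slc7a1 are filled in both comparisons with activated T cells, and no point of the comparison with keratinocyte medium is. Chac1 is drawn only for co-cultured against activated T cells, as T cells in keratinocyte medium had no read.

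In keratinocytes, none of the 10 genes passed the test of co-culture against keratinocytes alone. On simulated counts for this comparison edgeR recovered 2 of 100 genes changed 4 fold. The test called 0 of 12515 genes (0%), with 901 at an unadjusted p under 0.05, whereas DESeq2 called 186 and limma 0. Atf4 was at 119 ± 21.5 RPKM (SD, n = 2) alone and 120 ± 1.98 in co-culture, with a log2 fold change of 0.08 ± 0.32. Slc7a5 (0.11 ± 0.41), Slc3a2 (0.16 ± 0.51), Slc7a1 (-0.07 ± 0.31) and Asns (0.24 ± 0.34) were likewise within 1 SE of 0. The largest differences were those of Ddit3 (-1.49 ± 0.85, unadjusted p = 0.144, adjusted p = 0.658) and Slc1a5 (0.61 ± 0.73, adjusted p = 0.774). Chac1 was at 0.51 ± 0.35, Slc38a2 at -0.44 ± 0.34 and Trib3 at 0.34 ± 0.88. The Ddit3 difference came from library 2 of keratinocytes alone and was 0.31 without it.

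Whether co-culture acted differently on both cell types was tested as a difference of the log2 fold changes, co-cultured against medium in T cells minus co-cultured against alone in keratinocytes. None of the 10 genes passed this test, while 0.576% of 13202 genes were called, 0.523% higher and 0.053% lower. On simulated counts for this test edgeR recovered 2 of 100 genes changed 4 fold and 53 of 100 changed 16 fold. Chac1 came closest, with an adjusted p of 0.0932, and it passed with DESeq2 (0.000554) and without a filter (0.00735). Ddit3 had a difference of 2.15 ± 1.24 and Slc38a2 of 0.77 ± 0.44, both with an adjusted p of 0.860. With single libraries left out, the difference of Ddit3 was between 0.35 and 2.93.

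Keratinocytes alone and activated T cells differed in several of the genes. In keratinocytes alone, 4 genes were higher than in activated T cells (22.5% of all 13394 genes tested) and 1 was lower (13% of all genes), with 35.5% of all genes called. Chac1 was 23.4 fold higher (log2 fold change 4.71 ± 0.62, adjusted p = 0.00130), Slc38a2 5.07 fold (2.52 ± 0.39, adjusted p = 0.00181) and Asns 4.31 fold (2.27 ± 0.45, adjusted p = 0.00547). Slc1a5 was 16.2 fold lower (-3.85 ± 0.62, adjusted p = 0.00216), and its log2 fold change was -4.63 without library 2 of keratinocytes alone, the library with more T-cell markers. Ddit3 was called higher (3.44 ± 0.92, adjusted p = 0.0191), but not without library 2 of keratinocytes alone (1.55, adjusted p = 0.198) or without either library of activated T cells (0.0794 and 0.115). Trib3 (1.66 ± 0.71, adjusted p = 0.0994) passed without library 1 of keratinocytes alone (2.33, adjusted p = 0.0234). Slc7a5 (-0.45 ± 0.52), Slc3a2 (0.31 ± 0.50), Slc7a1 (0.50 ± 0.40) and Atf4 (0.27 ± 0.43) had adjusted p values from 0.344 to 0.652.

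After co-culture, 6 genes were higher in keratinocytes than in their T-cell partners (17% of all genes) and 1 was lower (6.73%), with 23.7% of all genes called. Chac1 was 31.1 fold higher (log2 fold change 4.83 ± 0.63, adjusted p = 0.00203), Asns 24.2 fold (4.48 ± 0.50, adjusted p = 0.000835), Slc7a1 5.16 fold (2.29 ± 0.42, adjusted p = 0.00562), Slc7a5 4.27 fold (1.97 ± 0.53, adjusted p = 0.0292), Atf4 4.17 fold (1.94 ± 0.45, adjusted p = 0.0161) and Slc38a2 3.53 fold (1.74 ± 0.38, adjusted p = 0.0125). Slc1a5 was 4.09 fold lower (-2.06 ± 0.58, adjusted p = 0.0326). The part of keratinocyte RNA in the Chac1 and Asns levels of co-cultured T cells, for which scaled values are given above, was not tested. Slc3a2 (0.99 ± 0.50, adjusted p = 0.185), Trib3 (2.16 ± 0.73, adjusted p = 0.0596) and Ddit3 (-0.22 ± 0.83, adjusted p = 0.875) did not pass. With single libraries left out, Trib3 was between 1.38 and 2.69. The median over the 10 genes was 1.95, against 0.18 for all genes. For keratinocytes alone against activated T cells it was 1.08 against 0.14.

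Of these calls, those of Chac1, Asns and Slc7a1 held in every fit with a library left out. Without library 1 of co-cultured T cells the adjusted p was 0.148 for Slc7a5 (log2 fold change 1.54), 0.0854 for Slc38a2 (1.53), 0.0644 for Atf4 (1.40) and 0.0763 for Slc1a5. Without library 1 of co-cultured keratinocytes it was 0.0859 for Slc7a5 and 0.121 for Slc1a5 (-1.41), and Slc1a5 was at -3.22 without library 2. Without library 2 of co-cultured T cells the log2 fold changes were larger for Chac1 (5.81), Atf4 (2.80) and Slc7a5 (2.60), and Chac1 was at 4.23 without library 1. Slc1a5 also lost its call without library 2 of co-cultured T cells (0.108) or either library of activated T cells (0.0510 and 0.0507), and Slc7a5 with unique reads (0.0705). Trib3 passed without either library of keratinocytes alone (0.0195 and 0.0220).

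**Figure D3:**
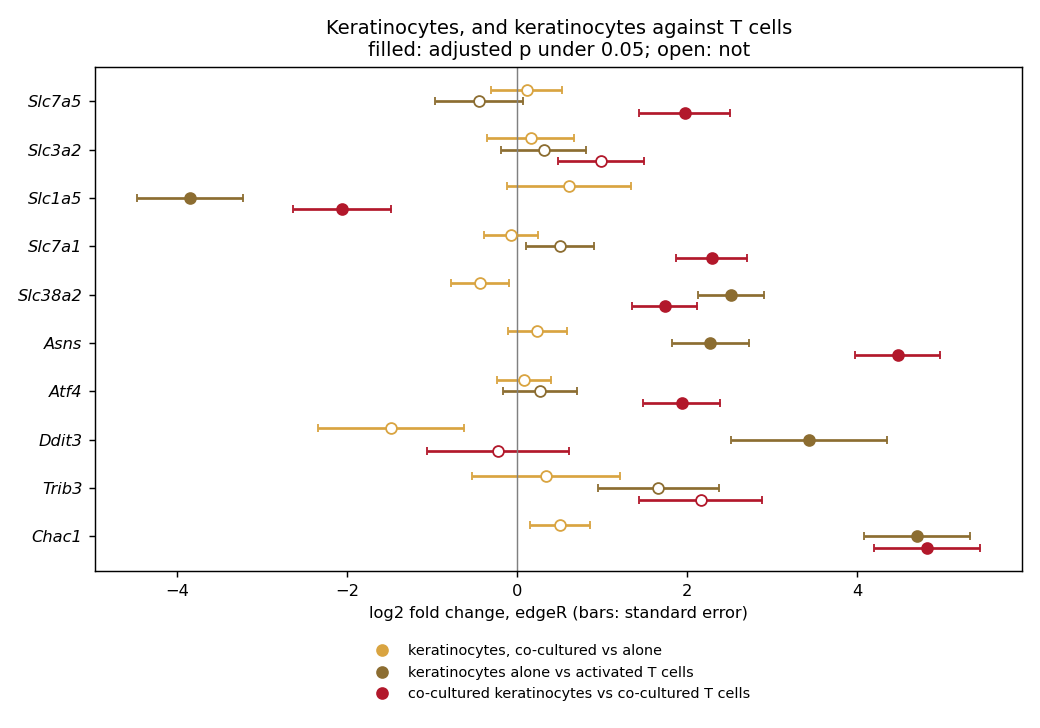
Log2 fold changes of the 10 genes from edgeR, for the co-culture of keratinocytes and for keratinocytes against T cells, with bars for the standard error and filled points for an adjusted p under 0.05. Asns, Chac1 and Slc38a2 are filled to the right of 0 in both comparisons between cell types, Slc1a5 to the left in both, and no point of the keratinocyte comparison is filled.

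Other genes of the same pathways were taken from 6 lists. These lists too were chosen with earlier results of these data known, so their shares of calls are descriptive. Calls of list genes are from the full fits only, and fits with a library left out are not given for them. Such fits ended calls of the 10 genes and widely changed the number of genes called over all genes, as given below. Some genes are counted in more than one list: Sesn2 as ATF4 target and for mTORC1, Ppp1r15a as ATF4 target and for eIF2, and Slc38a9 as transporter and for mTORC1. Aminoacyl-tRNA synthetases, which load amino acids on tRNAs and many of which are known ATF4 targets, had the highest share of calls in T cells. Of 20, 10 were lower in keratinocyte medium than in activated T cells (4.22% of all genes tested) and 12 were lower in co-culture (5.72% of all genes tested), and none was higher in either. Their median log2 fold changes were -1.75 and -1.77. In keratinocyte medium the largest falls that passed were those of Iars (-2.37 ± 0.48, adjusted p = 0.0303), Cars (-2.30 ± 0.49, 0.0348), Yars (-1.95 ± 0.46, 0.0458) and Tars (-1.93 ± 0.35, 0.0239). In co-culture they were those of Eprs (-3.52 ± 0.87, adjusted p = 0.0416), Iars (-2.90 ± 0.49, 0.0129), Cars (-2.56 ± 0.50, 0.0192) and Hars (-2.30 ± 0.35, 0.00984). Iars, for instance, was at 67.4 and 26.8 RPKM in activated T cells, 9.26 and 7.01 in medium and 7.27 and 3.82 in co-culture. Every later T-cell library was below both activated ones.

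In the full fits, of 25 other ATF4 targets that could be tested in T cells, 7 were lower and 1 higher in keratinocyte medium, and 6 were lower and 1 higher in co-culture, where over all genes tested 4.22% and 5.72% were lower and 2.32% and 4.59% higher. The medians were -1.66 (-1.40 with genes without a read at their bound) and -1.22. Atf3, a stress-induced transcription factor, was at 20.1 and 10.4 RPKM in activated T cells, 0.391 and 0.457 in medium and 1.13 and 1.67 in co-culture (log2 fold changes -4.99 ± 0.59, adjusted p = 0.0115, and -3.21 ± 0.54, adjusted p = 0.0128). Vegfa had 265 and 287 reads in activated T cells and 0 in medium, at least 97.0 fold lower (adjusted p = 0.0211). Gpt2, a transaminase, fell in medium (-2.62 ± 0.63, adjusted p = 0.0488), and Shmt2, a mitochondrial enzyme of serine and one-carbon metabolism (-2.43 ± 0.40, 0.0125), and Xpot, the exporter of tRNAs from the nucleus (-2.23 ± 0.42, 0.0175), fell in co-culture. Jdp2, a transcription factor that acts mainly as a repressor, was the gene that rose, in medium (2.50 ± 0.54, adjusted p = 0.0352) and in co-culture (2.65 ± 0.54, 0.0223).

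Other amino acid transporters did not share one direction. In keratinocyte medium 2 of 20 were higher and 1 lower (2.32% and 4.22% of all genes tested), and in co-culture 2 were higher and 2 lower (4.59% and 5.72% of all genes tested), with medians of -0.32 and -0.02. Slc6a19, a carrier of neutral amino acids best known from gut and kidney, was at 0.680 and 0.476 RPKM in activated T cells, 25.5 and 21.3 in medium and 23.6 and 23.3 in co-culture (5.48 ± 0.38, adjusted p = 0.00281, and 5.53 ± 0.38, 0.00162). It was at 0.0501 RPKM or less in keratinocytes. Slc43a1 (LAT3), a carrier of branched-chain amino acids, rose as well (2.92 ± 0.53, adjusted p = 0.0229, and 2.94 ± 0.53, 0.0153), while Slc16a10 (TAT1), a carrier of aromatic amino acids, fell (-3.56 ± 0.58, 0.0189, and -3.13 ± 0.57, 0.0157). Slc7a3, an arginine carrier related to Slc7a1, had 91 and 104 reads in activated and 0 in co-cultured T cells, at least 30.9 fold lower (adjusted p = 0.0266). Thus 2 neutral amino acid carriers were higher in the later T cells in which Slc7a5 was lower.

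Of 15 ER chaperones and genes of the unfolded protein response, 3 were lower in keratinocyte medium (4.22% of all genes tested), namely Hyou1 (-2.20 ± 0.45, adjusted p = 0.0310), Pdia6 (-1.59 ± 0.29, 0.0239) and Hspa5 (-1.52 ± 0.32, 0.0348). In co-culture, where 5.72% of all genes tested were lower, these 3 and Hsp90b1 (-2.37 ± 0.45, 0.0182) were lower and Edem1, which takes part in the degradation of misfolded proteins, was higher (1.33 ± 0.28, 0.0239). Of 9 genes of eIF2 and its kinases and phosphatases 11.1% were called in each comparison, near the 6.54% and 10.3% over all genes tested. The single gene was Eif2s1, the subunit that is phosphorylated, which was lower (-1.71 ± 0.34, adjusted p = 0.0297, and -1.63 ± 0.34, 0.0235). Of 22 genes of amino acid sensing by mTORC1, 3 were higher in each (2.32% and 4.59% of all genes tested) and none lower. These were Sesn1 (2.36 ± 0.31, adjusted p = 0.0127, and 2.41 ± 0.31, 0.00693), Gatsl2 (2.14 ± 0.45, 0.0346, and 1.78 ± 0.45, 0.0445) and Sesn3 (1.49 ± 0.31, 0.0316, and 1.65 ± 0.31, 0.0170). Sestrins are known as inhibitors of mTORC1 that respond to leucine or stress.

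**Figure D4:**
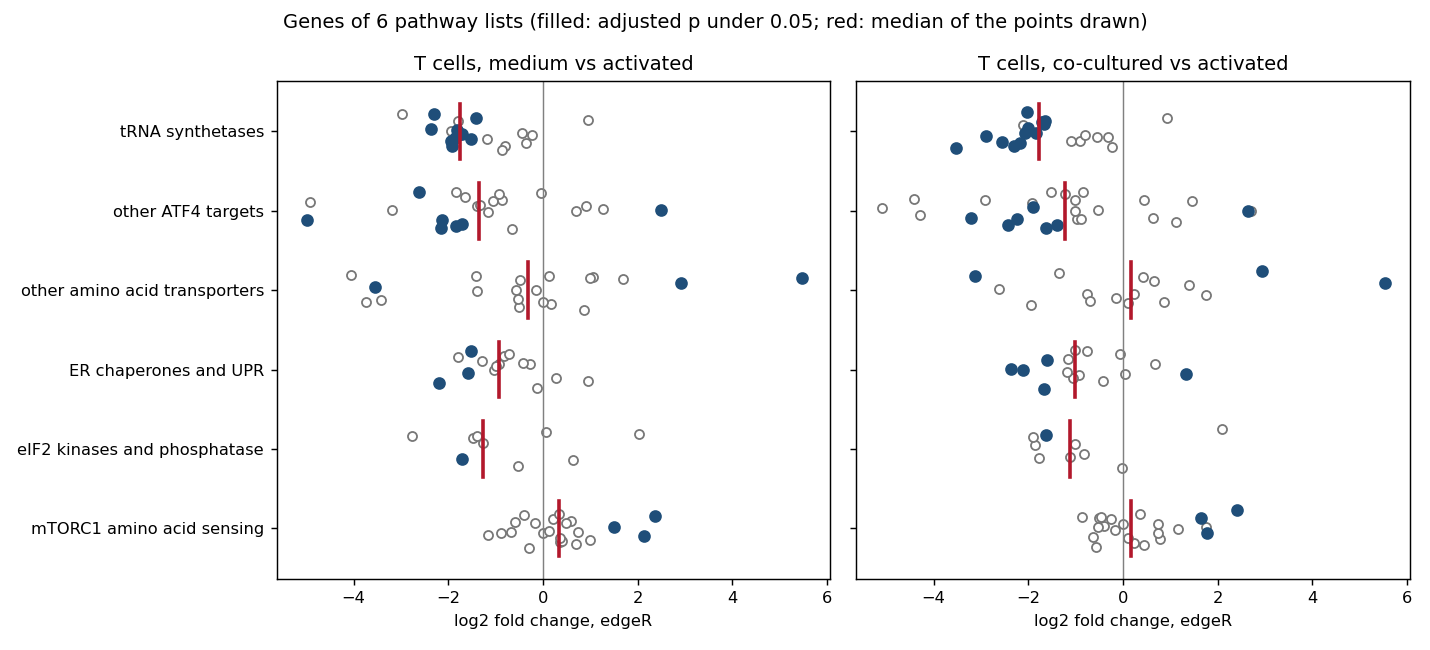
Log2 fold changes from edgeR in T cells for the genes of 6 pathway lists, with filled points for an adjusted p under 0.05 and a red line at the median of the points drawn. Filled points of tRNA synthetases lie to the left of 0 in both panels and those of mTORC1 amino acid sensing to the right, and 3 (medium) and 4 (co-culture) genes with a group at 0 reads are not drawn.

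No gene of these lists passed the test of co-culture against keratinocyte medium in T cells. Among other ATF4 targets the smallest p values were those of Nupr1, a stress-induced gene with 43 and 39 reads in co-culture and 0 in medium (adjusted p = 0.335), and of Vegfa, with 24 and 1 reads in co-culture and 0 in medium (0.799). Among transporters they were those of Slc6a14, with 63 and 16 reads in co-culture and 0 in medium (0.750), and of Slc7a3, with 0 reads in co-culture and 10 and 1 in medium (adjusted p = 1). Slc6a14 was at 49.6 to 128 RPKM in keratinocytes, and its reads in co-cultured T cells were more in the library with more keratinocyte markers, whereas Chac1 had more reads in the other library. The part of keratinocyte RNA in these values was not tested. Impact, an inhibitor of the eIF2 kinase GCN2, was at 2.40 and 1.87 RPKM in medium and 0.325 and 0.371 in co-culture (-2.55 ± 0.61, adjusted p = 0.396). The genes with the smallest p in the 4 lists other than ATF4 targets and transporters were, beside Impact, Eif2ak2 (1.66 ± 1.09), Flcn (-0.91 ± 0.41), Rheb (0.63 ± 0.40), Hars (-0.50 ± 0.34), Iars (-0.52 ± 0.46), Edem1 (0.38 ± 0.27) and Hsp90b1 (-0.56 ± 0.43), each with an adjusted p of 1.

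In keratinocytes no gene of the lists passed upon co-culture either. By the smallest p with edgeR, the log2 fold changes were 0.98 ± 0.33 for Kars and 0.99 ± 0.45 for Wars among tRNA synthetases, 0.80 ± 0.29 for Phgdh, the first enzyme of serine synthesis, and -1.67 ± 0.65 for Cebpb among ATF4 targets, and -3.46 ± 1.57 for Slc7a4 and 0.68 ± 0.41 for Slc6a14 among transporters. Slc7a4 had 45 reads or fewer in each keratinocyte library. In the lists of eIF2, mTORC1 and the ER they were -1.29 ± 0.52 for Eif2ak3 (PERK), 0.68 ± 0.29 for Eif2s1, -1.40 ± 0.60 for Mtor, 0.58 ± 0.30 for Rheb, -0.81 ± 0.42 for Sel1l and 0.53 ± 0.30 for Dnajb9. The adjusted p was 0.658 or 0.659 for all 12 genes. The difference between the cell types in the effect of co-culture was not called for any list gene either. The smallest adjusted p values of that test were 0.122 for Nupr1 and 0.359 for Phgdh, 0.133 for Slc6a14 and 0.580 for Slc7a8, and they were 0.651 or more for Impact, Ppp1r15a, Sdf2l1, Hyou1, Sesn2, Rragb, Kars and Qars.

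In keratinocytes alone against activated T cells, 13 of 30 other ATF4 targets were higher and 4 lower, and 9 of 25 transporters were higher and 5 lower, where 22.5% of all genes tested were higher and 13% lower. The ATF4 targets with the largest fitted differences were Gdf15, a stress-induced cytokine with no read in activated T cells (at least 19.8 fold, adjusted p = 0.0128), Nupr1 (7.95 ± 1.02, 0.00115), Adm2 (0.00920) and Vldlr (7.08 ± 1.14, 0.00404). Adm2 had 60 and 147 reads in keratinocytes alone and 1 and 0 in activated T cells. The 4 transporters with the largest fitted differences had no read in activated T cells, so that only bounds are given. These were Slc6a14 (at least 1257 fold higher, adjusted p = 0.000284), the glutamate carriers Slc1a1 (at least 848 fold, 0.00214) and Slc1a3 (at least 15.0 fold, 0.0306), and Slc38a4 (at least 29.3 fold, 0.0109). By these bounds the rank of Slc1a3 and Slc38a4 against the lower ones is not known. The 5 lower ones were Slc6a19, with few reads in keratinocytes (adjusted p = 0.00150), Slc16a10 (-4.57 ± 0.74, 0.00214), Slc43a1 (-4.45 ± 0.93, 0.00693), Slc38a1 (-4.20 ± 0.66, 0.00197) and Slc7a6 (-1.38 ± 0.41, 0.0303). Of the 20 tRNA synthetases none was higher and 4 were lower, Kars (-1.29 ± 0.35, adjusted p = 0.0202), Hars (-1.15 ± 0.35, 0.0332), Farsa (-1.13 ± 0.33, 0.0266) and Farsb (-1.03 ± 0.30, 0.0258). In the 3 further lists 7 genes were higher and 4 lower. Those of eIF2 were Ppp1r15a (2.55 ± 0.64), Impact (1.49 ± 0.49) and Eif2s1 (-1.29 ± 0.33), and those of the ER were Sdf2l1 (-1.66 ± 0.36), Sel1l (1.28 ± 0.42) and Manf (-1.08 ± 0.34). The largest of mTORC1 were Rragb (-4.44 ± 1.08), Gatsl2 (2.90 ± 0.63), Sesn2 (2.64 ± 0.42) and Gatsl3 (1.51 ± 0.50). The genes named had adjusted p from 0.00214 to 0.0432.

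In co-culture, 15 of the 30 ATF4 targets and 11 of the 20 tRNA synthetases were higher in keratinocytes than in T cells and none lower, and 5 of 25 transporters were higher and 4 lower, where 17% of all genes tested were higher and 6.73% lower. The tRNA synthetases with the largest differences were Cars (3.04 ± 0.46, adjusted p = 0.00267), Lars (2.66 ± 0.51, 0.00712), Iars (2.24 ± 0.47, 0.0104) and Mars (1.85 ± 0.35, 0.00703). The medians of the tRNA synthetases were -0.34 for keratinocytes alone against activated T cells and 1.39 in co-culture. Among ATF4 targets Vldlr (at least 113 fold, adjusted p = 0.00459), Aldh1l2 (at least 38.9 fold, 0.00344) and Adm2 (at least 12.9 fold, 0.0169) had no read in co-cultured T cells, and Cth was at 7.25 ± 1.35 (0.00625). Among transporters Slc38a4 (at least 60.5 fold, adjusted p = 0.0118) and Slc7a3 (at least 51.2 fold, 0.00488) had no read in co-cultured T cells. Slc1a1 was higher as well, with 5 and 0 reads in co-cultured T cells (adjusted p = 0.00437), and Slc6a19 was lower, with 3 and 0 reads in keratinocytes (adjusted p = 0.000336). In the 3 further lists 7 genes were higher and 3 lower. Those of eIF2 and the ER were Impact (2.44 ± 0.52), Hspa5 (1.42 ± 0.35), Pdia6 (1.32 ± 0.31), Edem1 (-1.23 ± 0.28) and Atf6 (1.18 ± 0.34), and the largest of mTORC1 were Sesn2 (2.71 ± 0.43), Sesn1 (-2.25 ± 0.34), Sesn3 (-2.14 ± 0.36) and Rheb (1.29 ± 0.40), with adjusted p from 0.00247 to 0.0458.

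Across the 10 libraries, the gene with a pattern most like that of Slc7a5 among 8744 genes was Atf4, another of the 10 genes. The mean absolute difference of their centred log2(RPKM + 1) values was 0.267, and Ipo4 (0.302), Ncs1 (0.318), Top1mt (0.329) and Tmem41a (0.336) followed. For Asns the nearest were Scd1 (0.258), Cth (0.337), Cnn3 (0.340), Acsl1 (0.372) and Tubb6 (0.401). Cth, an enzyme of cysteine synthesis, is in the list of other ATF4 targets. Its RPKM values were 17.5 and 27.4 for co-cultured keratinocytes, 8.36 and 20.7 for those alone, 4.88 and 2.22 for activated T cells and at most 0.273 for later T cells. These distances describe 10 libraries, of which 4 are of keratinocytes and 6 of T cells, so that the difference between the cell types enters each of them. No test was made of them.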

How the data were processed

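Poly(A) RNA of 10 libraries was sequenced as single-end reads on a HiSeq2500, and the authors mapped it to GRCm38 with default settings of the CLC Genomics Workbench. Gene counting options and the annotation release are not given in the sources used here. The authors deposited whole-number counts of exon reads and of unique exon reads per gene, not normalized, and RPKM values written with a decimal comma, which were read as RPKM. Groups come from the labels. The 10 genes and the lists were chosen with earlier results of these data known.

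Exon read counts entered glmQLFit and glmQLFTest of edgeR 4.0.16 (R 4.3.3) after filterByExpr and TMM normalization. Benjamini-Hochberg adjustment ran over all genes tested, with a threshold of 0.05. Keratinocytes (4 libraries), T cells (6), the difference between cell types (8) and both cell types (10) were fitted apart. The SE is the log2 fold change divided by the square root of F. Fold values are ratios of mean RPKM. Floors of 3 reads cover counting error only. All 10 genes were named. Of each list up to 4 genes per comparison with an adjusted p under 0.05 and the largest fitted change were named, or the 2 with the smallest p. Transporters lower in keratinocytes alone than in activated T cells were named as well. Other settings tried were library size, no filter, unique reads, a replicate block, more or fewer groups in a fit, single libraries left out, limma 3.58.1 with log2(RPKM + 1) as input, and DESeq2 1.42.0. A permutation of 2 against 2 libraries cannot give a p below 0.333 and was not used. On simulated counts of T cells (medium against activated, 11572 genes) edgeR recovered 42 of 100 genes changed 4 fold and 94 of 100 changed 16 fold, and of keratinocytes (12242 genes) 2 and 81 of 100. Python 3.11.15 and matplotlib 3.10.9 were used for tables and plots, and promoters are from RefSeq.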

Additional observations from a re-analysis of the deposited data

How the results depend on the processing

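Each p-value rests on 2 libraries a group, and Chac1 had fewer than 100 reads in each T-cell library. Where a library was left out, the remaining one of its group is assumed to vary like the other groups. Directions under all settings other than a left-out library remained for the 10 genes, except for Chac1 in co-cultured against activated T cells with limma (-0.0047), Ddit3 in co-cultured keratinocytes against co-cultured T cells with limma (0.13), and Trib3 in co-cultured T cells against medium with DESeq2 (0.0051) and with all 10 libraries in one fit (0.019). The causes of the changes given here were not tested. Library sizes in place of TMM moved the median of all genes by -0.11 for T cells in medium against activated T cells, by -0.16 for co-cultured against activated T cells and by -0.16 for keratinocytes alone against activated T cells.

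In keratinocytes, co-culture against alone, DESeq2 called 186 genes, the fit without a filter 11, the fit of all 10 libraries 4 and the fit with the replicate block 2, against 0. Deviations of keratinocyte libraries with the same replicate number had a correlation of 0.558 across 12515 genes, with 2 pairs. Library 2 of both groups also had more T-cell markers (445.1 RPKM alone and 794.5 in co-culture) than library 1 (112.5 and 145.6 RPKM). The labels give no pairing beyond the replicate number. With the replicate block no member was called, and Chac1 was at 0.55 (adjusted p = 0.325). For T cells in medium against activated T cells, DESeq2 called 1947 genes and the fit without a filter 1945, against 776. Slc1a5 passed with DESeq2 (adjusted p = 0.0152) and limma (0.0392), Asns without a filter (0.0369), and Slc7a1 was lost with library size (0.0512) and limma (0.0640). For co-cultured against activated T cells the counts were 2344 and 2425, against 1222, with 1 member higher in both, which was Ddit3. Atf4 passed there with DESeq2 (0.00712), library size (0.0348), no filter (0.000515), unique reads (0.0491) and limma (0.0192), and Slc1a5 was lost with all 10 libraries in one fit (0.212). For co-cultured T cells against medium, 87 genes were called with DESeq2, 141 without a filter, 99 with limma and 83 with all 10 libraries in one fit, against 31, and 1 member, Chac1, was higher in the fits other than limma. For the difference between the cell types, DESeq2 called 358 genes and the fit without a filter 205, against 76, with 1 member (Chac1) higher in both. For co-cultured keratinocytes against co-cultured T cells, the fit of these groups alone called 1731 genes, against 3177, and 0 members lower, as Slc1a5 was lost (0.0909), and Atf4 as well (0.0732). Trib3 passed in that comparison with DESeq2 (0.0159) and without a filter (0.00852), and without a filter in keratinocytes alone against activated T cells (0.0305).

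With single libraries left out, the number of genes called was 0 to 1164 for keratinocytes (the highest without library 1 of co-cultured keratinocytes), 24 to 1067 for T cells in medium against activated T cells, 266 to 1093 for co-cultured against activated T cells, 16 to 52 for co-cultured T cells against medium, 21 to 105 for the difference between the cell types, 2394 to 4943 for keratinocytes alone against activated T cells and 1614 to 3336 for co-cultured keratinocytes against co-cultured T cells. Members lower were 0 to 4 in medium and 0 to 3 in co-culture against activated T cells, with 0 to 1 higher in the latter. Between the co-cultured cell types 3 to 7 were higher and 0 to 1 lower. Log2 fold changes that changed direction on leaving out a library were not called in the full fits. In keratinocytes these were Slc7a5 (-0.29 to 0.65), Slc3a2 (-0.33 to 0.89), Slc1a5 (-0.52 to 1.32), Slc7a1 (-0.28 to 0.16), Atf4 (-0.13 to 0.31), Ddit3 (-2.27 to 0.31) and Trib3 (-0.42 to 2.02). Against activated T cells they were Slc38a2 in medium (-0.47 to 0.48) and Slc38a2 (-0.16 to 0.80) and Chac1 (-0.65 to 0.85) in co-culture. Between co-cultured T cells and medium they were Slc3a2 (-0.19 to 0.76), Slc7a1 (-0.24 to 0.14), Atf4 (-0.19 to 1.11), Ddit3 (-0.61 to 1.32) and Trib3 (-0.30 to 0.24). For the difference between the cell types they were Slc3a2 (-0.53 to 0.69), Slc1a5 (-1.54 to 0.34), Slc7a1 (-0.20 to 0.25), Atf4 (-0.26 to 1.04) and Trib3 (-2.02 to 0.46). In keratinocytes alone against activated T cells they were Slc7a5 (-1.08 to 0.24), Slc3a2 (-0.51 to 0.71), Slc7a1 (-0.080 to 1.15), Atf4 (-0.055 to 0.43) and Trib3 (-0.092 to 2.33), and between the co-cultured cell types it was Ddit3 (-0.91 to 1.12).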
